A study of Ovis aries with 15 samples.

Results

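The collagen genes of the sheep kidney are described here, taken as every gene of the deposited expression file whose symbol reads COL, a type number, A and a chain number. This rule found 43 of the 25592 genes of the file, and no measured value entered the choice. The libraries were made from kidney RNA of male Dorper × Small-tailed Han crossed sheep of 4 months of age, penned in pairs, that were fed a total mixed ration for 21 d. The ration was given plain in CON, with aflatoxin B1 at 500 μg per kg of dry matter in AFB1, and with aflatoxin B1 at 500 μg plus curcumin (CUR) at 800 mg per kg of dry matter in AFB1_CUR. Aflatoxin B1 is a mould toxin of feed crops, curcumin is a plant polyphenol, and the study asked whether CUR eases kidney damage by AFB1. No group received CUR alone, so that every CUR effect was seen on top of the toxin. Each group held 5 libraries, which the labels describe as separate samples and which the study drew from different sheep; the stained sections of the study were of cortex, and the kidney region of the RNA samples is not given in the sources used here.

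Collagens are secreted or membrane-bound proteins in which chains wind into triple helices. Type IV forms the sheet-like network of every basement membrane, and in the kidney its *COL4A3*, *COL4A4* and *COL4A5* chains build the filter of the glomerulus, whereas *COL4A1* and *COL4A2* are found under nearly all epithelia and vessels. Types I, III and V form the fibrils of the interstitium between tubules, type VI forms beaded filaments close to cells, and fibril-associated collagens (FACIT) coat fibrils; interstitial fibroblasts make most of the fibrillar chains, and their build-up is the hallmark of renal fibrosis.

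The total counts ran from 50255295 to 68747047 per library, and collagen genes took between 0.156% and 0.575% of them. The library labelled AFB1 replicate 1 went against its tissue label. Its mean level over 12 hepatocyte markers was 11.2 on the log2(FPKM + 1) scale, against 1.58 to 3.44 in the other 14 libraries, and its mean over 8 proximal tubule markers was 1.84 against 6.46 to 8.13. All 8 podocyte, all 8 endothelial and all 9 loop and collecting duct markers were lower in it than in any other library. The comparisons therefore rest on the other 14 libraries (5 CON, 4 AFB1 and 5 AFB1_CUR), and values with all 15 are given for each tested collagen whose call they change. FPKM, the fragments per kilobase of transcript scaled to the mapped fragments of the library, allows levels to be compared between genes, and all levels below are FPKM unless another scale is named.

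*COL4A1* was the most abundant collagen transcript of the kidney, with a median of 70.2 FPKM over the 14 libraries, rank 695 of all genes of the file. It was the highest collagen in 13 of 14 libraries. *COL6A1* followed at 47.4 FPKM, *COL4A2* at 39.9, *COL6A2* at 36.3, *COL15A1* at 31.4 and *COL18A1* at 28.1. The main fibrillar chains came next, with *COL1A2* at 24.3 FPKM, *COL3A1* at 22.0 and *COL1A1* at 16.5. The order of neighbours was not fixed, since *COL6A1*, *COL4A2* and *COL6A2* exchanged places between libraries and *COL6A1* was among the 3 highest in 12 of 14, *COL4A2* in 8 and *COL6A2* in 3. Of the 43 genes, 25 had a median of at least 1 FPKM.

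**Figure D1:**
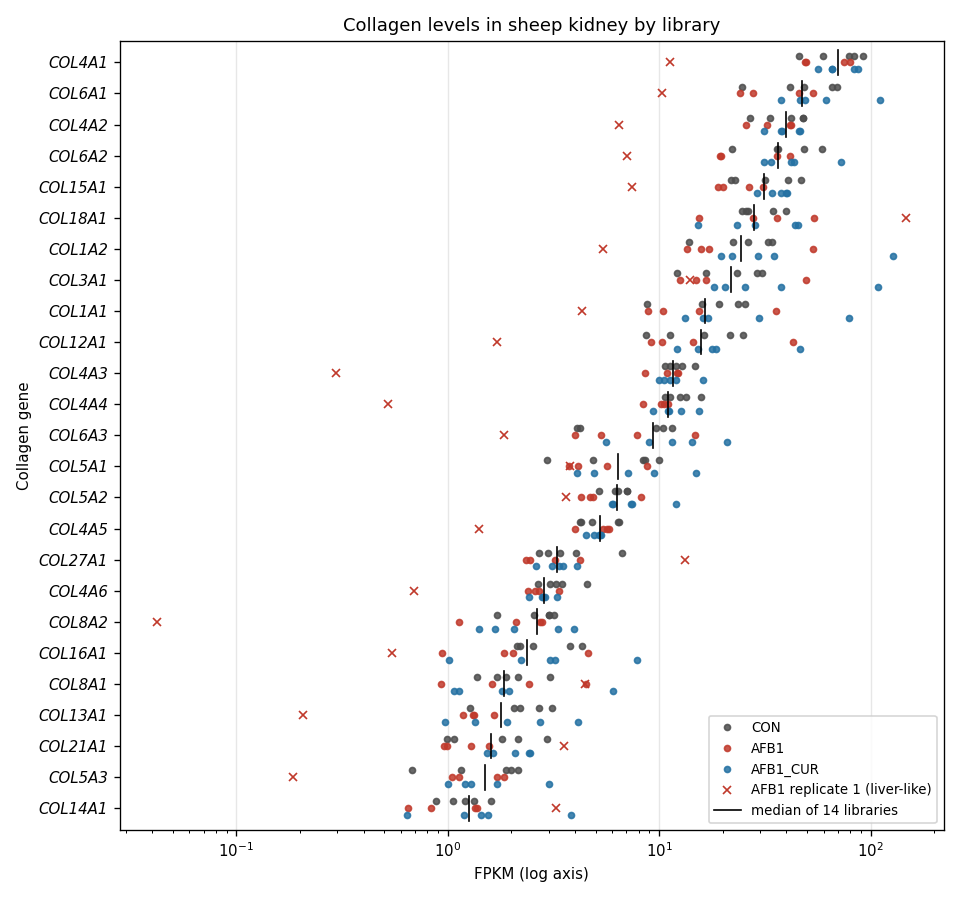
FPKM (log axis) of the 25 collagen genes with a median of at least 1 FPKM, ordered by that median. Each dot is a library coloured by group, the black bar is the median of 14 libraries and the cross is AFB1 replicate 1, the liver-like library. Type IV genes have narrow clouds, while COL1A1, COL1A2 and COL3A1 reach 79.4, 128 and 109 FPKM in a single AFB1_CUR library.

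Summed by type, the 6 type IV genes made up a median of 34.2% of all collagen FPKM (range 17.99% to 40.0%), type VI 22.9% (17.0% to 26.0%) and type I 10.5% (7.98% to 23.4%). Type XV, a collagen at the outer side of basement membranes, took 7.70%, and type XVIII, its relative that carries endostatin, took 6.75%. Type III took 5.41%, type XII 3.76% and type V 3.41%. Basement membrane and pericellular types thus outweighed the fibril-forming genes, whose 11 members together took 19.97%. The share of type IV was 34.6% ± 4.11 in CON (SD, n = 5), 35.7% ± 6.16 in AFB1 (n = 4) and 30.5% ± 7.52 in AFB1_CUR (n = 5), and the share of type I was 10.2% ± 1.24, 10.5% ± 3.40 and 13.3% ± 5.84 in the same order. For both types the group means differed by less than the largest of the 3 SDs.

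**Figure D2:**
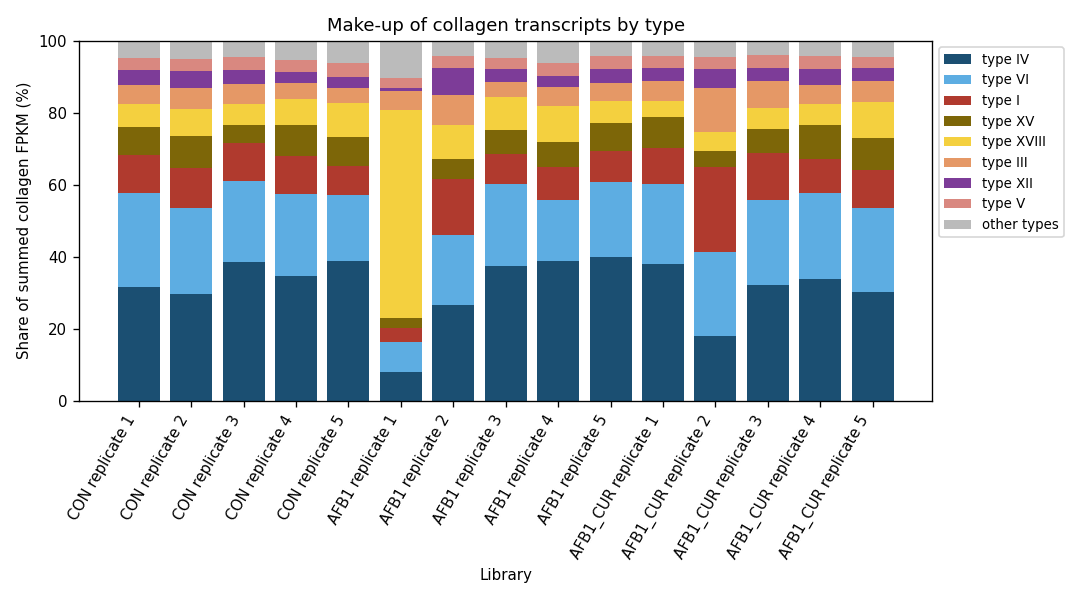
Share of each collagen type in the summed collagen FPKM (%), 1 bar per library. Type IV is the largest part in most kidney libraries; in AFB1_CUR replicate 2 it is 17.99% and type I is 23.4%, and in AFB1 replicate 1 type XVIII alone is 57.6%.

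The summed collagen level was 428 ± 109 FPKM in CON (SD, n = 5, 282 to 539), 376 ± 145 in AFB1 (n = 4, 256 to 574) and 512 ± 217 in AFB1_CUR (n = 5, 335 to 885). The ranges overlapped among all groups. In whole tissue, more cells of a type and more RNA per cell cannot be told apart, and this holds for every level given here.

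The chains of the common basement membrane molecule varied about as much as the typical gene, with coefficients of variation of 22.3% for *COL4A1* and 19.5% for *COL4A2*, beside a median of 20.3% over the 13162 genes that passed the filter on low values (at least 1 FPKM in at least 5 of the 14 libraries). *COL4A1* (chromosome 10, 84241592 to 84369833, minus strand) was at 92.4, 78.9, 83.4, 59.4 and 46.0 FPKM in CON replicates 1 to 5, at 79.9, 74.7, 48.9 and 49.5 in AFB1 replicates 2 to 5, and at 56.6, 83.6, 87.2, 65.7 and 65.6 in AFB1_CUR replicates 1 to 5. Each group held high and low libraries, and the 3 ranges lay on top of each other. *COL4A2* starts 127 bases away from *COL4A1* on the opposite strand (84369961 to 84527930), so that the pair shares the stretch between its starts. Its level followed that of its partner, and *COL4A1* exceeded *COL4A2* by a factor of 1.51 to 1.93 in the 14 libraries.

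The glomerular chains *COL4A3* (chromosome 2, 229401447 to 229560622, plus strand) and *COL4A4* (229248641 to 229401301, minus strand) also lie head to head, with 145 bases between them. *COL4A3* ran from 8.53 to 16.1 FPKM and *COL4A4* from 8.36 to 15.7, each with the groups overlapping. *COL4A5*, the X-linked chain that joins them and whose loss causes Alport syndrome, ran from 4.0 to 6.45 FPKM (median 5.24). *COL4A6*, which forms the network of Bowman's capsule and smooth muscle with it, ran from 2.41 to 4.58. The annotated spans of *COL4A5* and *COL4A6* overlap by 598 bases on opposite strands, and the strand setting of the counting is not given in the sources used here, so that reads in that stretch could be assigned to either gene. Coefficients of variation of the 6 type IV genes over the 14 libraries were 14.7% to 22.3%.

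Fibrillar chains of types I and III varied far more, largely through a pair of libraries. The coefficient of variation was 79.5% for *COL1A1*, 88.7% for *COL1A2* and 84.1% for *COL3A1*, and it was 38.8%, 33.7% and 37.0% without AFB1 replicate 2 and AFB1_CUR replicate 2. The median over the 26 collagen genes that passed the filter was 37.4%, with *COL5A2* (29.1%) and *COL27A1* (31.5%) of the fibril-forming genes below it. *COL1A1* (chromosome 11, 36191118 to 36208942), which encodes the main chain of type I fibrils, was at 23.6, 25.4, 19.2, 16.0 and 8.73 FPKM in CON replicates 1 to 5, at 35.7, 15.4, 10.4 and 8.85 in AFB1 replicates 2 to 5, and at 13.3, 79.4, 29.7, 16.2 and 16.9 in AFB1_CUR replicates 1 to 5. The highest AFB1_CUR and AFB1 libraries were both replicate 2, and outside them AFB1 (8.85 to 15.4) met AFB1_CUR (13.3 to 29.7) through 1 library each, with CON overlapping both. *COL1A2* (chromosome 4, 12552707 to 12589620), the partner chain, reached 128 FPKM in AFB1_CUR replicate 2 and 53.4 in AFB1 replicate 2, against 13.5 to 35.1 in the other 12 libraries. *COL3A1* (chromosome 2, 120362888 to 120403111), the chain of the thin fibrils that accompany type I, stood at 109 and 49.3 FPKM in those libraries and at 12.2 to 37.9 elsewhere. Outside replicate 2, the 3 AFB1 libraries lay below the 4 AFB1_CUR libraries for *COL1A2* (13.5 to 17.2 against 19.7 to 35.1 FPKM) and *COL3A1* (12.5 to 16.7 against 18.1 to 37.9). CON overlapped both groups, at 13.8 to 34.3 FPKM for *COL1A2* and 12.2 to 30.5 for *COL3A1*. Replicate 2 was set aside here after the values were seen, and the share of all genes that separate in this way was not counted. *COL12A1*, a FACIT that coats type I fibrils, was at 46.2 FPKM in AFB1_CUR replicate 2 and 42.8 in AFB1 replicate 2. It was at 8.64 to 24.9 in the other kidney libraries.

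Cell markers moved with these libraries. The mean over 8 fibroblast markers was 5.09 in AFB1_CUR replicate 2 on the log2(FPKM + 1) scale, against 2.61 to 3.81 in the other kidney libraries, among them 3.70 in AFB1 replicate 2. The mean over 8 immune cell markers was 4.81 and 3.97 in these libraries, against 1.17 to 2.49 in the other 12. Adrenal markers (1.11 and 0.77, elsewhere up to 0.46) and adipocyte markers (1.23 and 1.80, elsewhere up to 1.03) were also highest there, as were urothelium (0.53 and 0.67, elsewhere up to 0.45) and hepatic stellate cell markers (1.82 and 1.86, elsewhere up to 1.53). AFB1_CUR replicate 2 had the lowest loop and collecting duct mean (5.20) and the second lowest proximal tubule mean (6.47), and AFB1 replicate 2 had the highest hepatocyte mean of the 14 (3.44). The smooth muscle mean of AFB1_CUR replicate 2 was 4.59, the highest of all. At the other end, the 3 lowest collagen sums, 256, 281 and 282 FPKM, were those of AFB1 replicate 5, AFB1 replicate 4 and CON replicate 5. Their proximal tubule means were 7.98, 6.46 and 8.13, so that AFB1 replicate 4 had the lowest and the other two the highest of the 14 libraries. Outside replicate 2, the fibroblast means were 2.80, 2.74 and 2.89 in AFB1 and 2.77, 3.37, 3.81 and 3.65 in AFB1_CUR. The CON libraries ran from 2.61 to 3.57. Whether the make-up of the tissue pieces had a part in the collagen levels was not tested. *DCN* and *LUM* stand both among the fibroblast markers and in the matrix list used below.

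**Figure D3:**
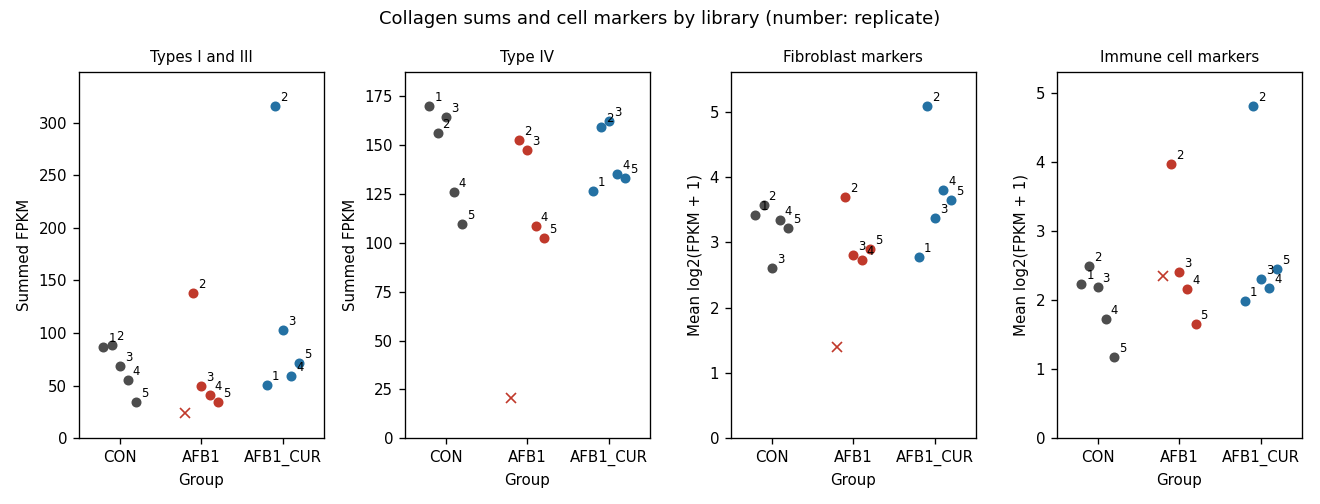
Summed FPKM of types I and III, summed FPKM of type IV, and mean log2(FPKM + 1) of 8 fibroblast and 8 immune cell markers, by group; each dot is a library with its replicate number, and the cross is AFB1 replicate 1. Replicate 2 of AFB1_CUR and of AFB1 stand highest in the first and the last panel (316 and 138 FPKM, 4.81 and 3.97), while type IV shows no such gap.

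AFB1_CUR replicate 2 held the highest level of 15 of the 26 collagen genes that passed the filter, and AFB1 replicate 5 the lowest level of 10. Without AFB1_CUR replicate 2 and AFB1 replicate 2, the median coefficient of variation of the 7 fibril-forming genes was 34.1% in place of 47.0%, that of the 6 type IV genes was 18.3% in place of 18.4%, and that of all 13162 genes was 18.1%.

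Type VI lay between these classes. *COL6A1* (chromosome 1, 266407449 to 266428488) ran from 24.8 to 69.6 FPKM in CON, from 24.1 to 53.7 in AFB1 and from 37.5 to 111 in AFB1_CUR. *COL6A2* (266543658 to 266575779), on the same strand 115169 bases downstream, ran from 22.2 to 58.8, from 19.4 to 41.7 and from 31.2 to 72.6 FPKM. *COL6A3*, the large partner chain, was lower, with a median of 9.32 FPKM. *COL6A5* and *COL6A6*, later-found chains that can take the place of *COL6A3*, had medians of 0.443 and 0.266 FPKM.

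Chains that enter one molecule were compared across the 14 libraries in 6 pairs, with Pearson r taken on the log2(FPKM + 1) scale. *COL1A1* and *COL1A2* varied together (Pearson r = 0.981, Spearman rho = 0.978, *P* = 1e-05 for both in a permutation test with 100000 resamples, the smallest they can give, and 0.954 without the 2 farthest libraries). *COL4A1* and *COL4A2* gave r = 0.964 (rho = 0.947) and *COL6A1* and *COL6A2* gave r = 0.975 (rho = 0.965), both again at the smallest permutation *P*, 1e-05, and with r of 0.977 and 0.959 without the 2 farthest libraries. *COL6A1* and *COL6A3* gave r = 0.891 (rho = 0.877) and 0.815 without them. By contrast, *COL4A3* and *COL4A4* gave r = 0.275 (rho = 0.0901, permutation *P* = 0.344 for r and 0.761 for rho), and *COL4A5* and *COL4A6* gave r = -0.185 (rho = -0.284, permutation *P* = 0.537 and 0.327). Their r without the 2 farthest libraries was -0.0714 and -0.211. Benjamini-Hochberg adjusted *P* over the 6 pairs was 1.5e-05 for the r of each of the first 4 pairs, and 0.413 and 0.537 for the last ones. With group means removed, r stayed at 0.979, 0.962, 0.974 and 0.905 in the first 4 pairs and was 0.127 and -0.240 in the last ones. The highest level was 1.89 times the lowest for *COL4A3* and 1.88 times for *COL4A4*. It was 2.01 and 1.86 times for *COL4A1* and *COL4A2*, which varied together, and 9.1 and 9.45 times for *COL1A1* and *COL1A2*. The genes of a pair share library, depth and tissue piece.

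**Figure D4:**
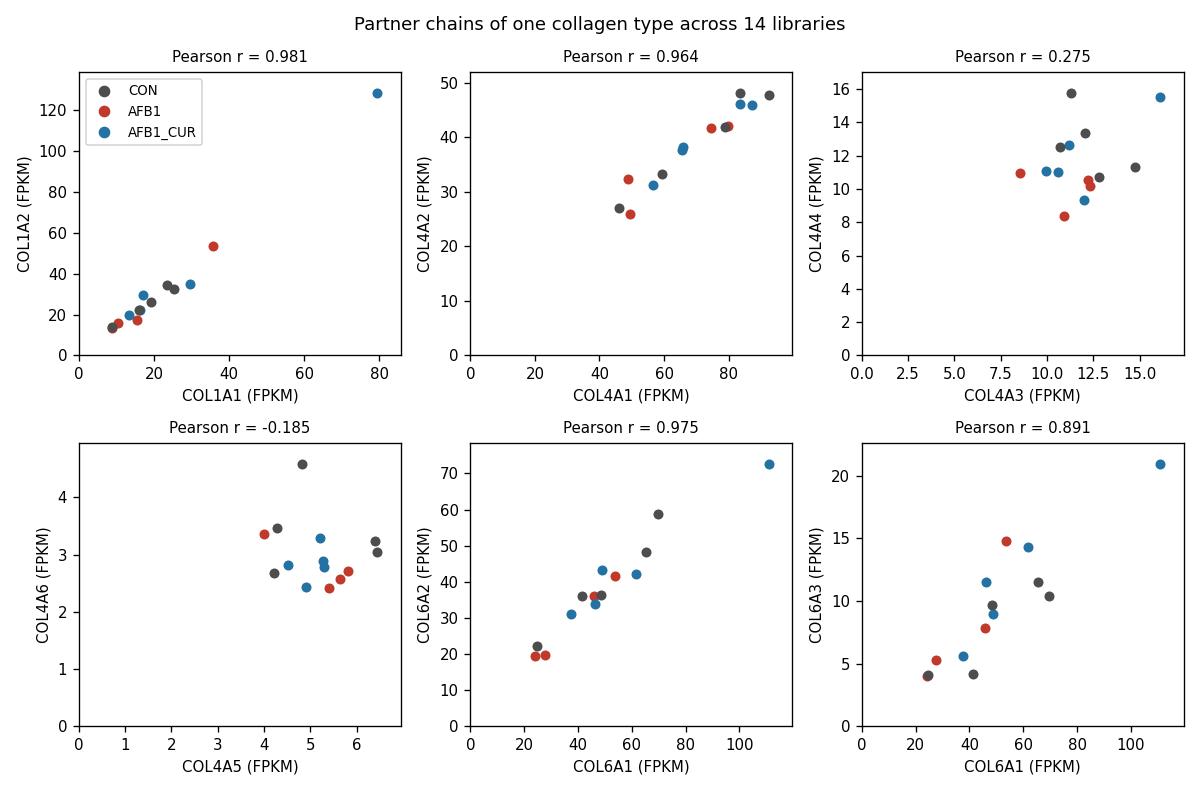
FPKM of the partner chains of a collagen type plotted against each other, 1 dot per library (14 libraries), coloured by group. The Pearson r above each panel was computed on log2(FPKM + 1), not on the plotted FPKM. COL1A1 with COL1A2, COL4A1 with COL4A2 and COL6A1 with COL6A2 lie close to a line (r of 0.981, 0.964 and 0.975), whereas COL4A3 with COL4A4 and COL4A5 with COL4A6 do not (0.275 and -0.185).

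Levels within a pair were also compared as ratios. *COL1A2* exceeded *COL1A1* in every one of the 14 libraries, by a factor of 1.12 to 1.73, although the type I molecule carries more of the *COL1A1* chain. *COL6A1* over *COL6A2* ran from 1.12 to 1.53 and *COL6A1* over *COL6A3* from 3.63 to 9.85. *COL4A3* over *COL4A4* ran from 0.716 to 1.30, both ends being CON libraries, and *COL4A5* over *COL4A6* from 1.05 to 2.25. *COL5A1* over *COL5A2*, chains that start and size type I fibrils, ran from 0.417 to 1.61, so that the highest ratio was 3.86 times the lowest, beside 2.72 times for *COL6A1* over *COL6A3* and 1.82 times for *COL4A3* over *COL4A4*.

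Among the less abundant collagens, *COL5A1* had a median of 6.42 FPKM, *COL5A2* 6.29 and *COL5A3* 1.5. *COL8A1* and *COL8A2*, short chains of vessel walls and corneal membranes, had 1.85 and 2.65 FPKM. The FACIT genes *COL16A1*, *COL21A1* and *COL14A1* had 2.38, 1.61 and 1.27 FPKM, the fibrillar gene *COL27A1* had 3.29 and *COL13A1*, a transmembrane collagen of cell contacts, had 1.78. The other 18 genes had medians below 1 FPKM, 8 of them below 0.1. They include the cartilage collagens *COL2A1* (0.436), *COL9A1* (0.0400), *COL11A1* (0.0902) and *COL10A1* (0.0244), the skin anchoring fibril gene *COL7A1* (0.565) and the hemidesmosome gene *COL17A1* (0.310). *COL9A2* was listed at 0 in 13 of the 14 libraries and at 0.406 FPKM in AFB1_CUR replicate 2, and *COL25A1* was listed at 0 in 11 of the 14. A listed 0 need not mean that the transcript is absent.

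The liver-like library differed from the kidney libraries in the kind of collagen it held. *COL18A1*, a gene that hepatocytes are known to express strongly, was at 148 FPKM in it, against 15.3 to 54.1 in the 14 kidney libraries. *COL27A1* (13.2 FPKM) and *COL21A1* (3.57) also lay above all 14. Of the 26 collagen genes that passed the filter, 19 lay below all 14, among them *COL4A3* at 0.296 FPKM and *COL8A2* at 0.0423. *COL3A1*, *COL5A1*, *COL8A1* and *COL14A1* lay within the kidney range.

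In AFB1 against CON, most collagen genes had slightly negative estimates, and 1 of the 26 tested passed the screening conditions of the study (a fold change of more than 1.5 at an unadjusted *P* below 0.05). The estimate was negative for 21 of 26, with a median log2 fold change of -0.22, beside 0.02 over all 13162 tested genes. That median was -0.44 without AFB1 replicate 2 and -0.12 without AFB1 replicate 5. All 6 type IV and all 3 tested type VI genes had negative estimates, with medians of -0.19 and -0.43. *COL13A1* was the gene that passed, with 2.72, 3.12, 2.07, 2.19 and 1.28 FPKM in CON replicates 1 to 5 and 1.32, 1.65, 1.33 and 1.19 in AFB1 replicates 2 to 5. The 4 AFB1 values lay at or below the lower part of the CON range, and the groups overlapped through CON replicate 5. Its log2 fold change was -0.73 ± 0.34 (SE) and its Benjamini-Hochberg adjusted *P* = 0.957 in edgeR's quasi-likelihood test. In that comparison 1.11% of all genes passed with lower and 0.653% with higher levels in AFB1, and no collagen was among the latter. With all 15 libraries, *COL18A1* passed with higher levels in AFB1 (1.29, beside 3.84% of all genes) and *COL13A1* (-0.96) and *COL15A1* (-0.60) with lower levels (1.01% of all genes). The call was lost in 14 of 24 alternative analyses, among them those without CON replicate 1, 2, 3 or 4 and without any 1 of the AFB1 libraries, with log2 fold changes of -0.81 to -0.62 in those 8.

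*COL15A1* (chromosome 2, 48806587 to 48908720) also had an unadjusted *P* under 0.05, as 5.04% of all genes did, but missed the fold change in the 14 libraries. It was at 40.8, 46.7, 21.8, 31.8 and 23.0 FPKM in CON and at 31.0, 26.6, 19.1 and 20.02 in AFB1, with a log2 fold change of -0.45 ± 0.20 (adjusted *P* = 0.957, edgeR). The ranges overlapped. The other genes with the most negative estimates were *COL21A1* (-0.59 ± 0.33) and *COL6A2* (-0.50 ± 0.29), and those with the most positive were *COL8A1*, *COL12A1* and *COL26A1*, each at 0.17 with an SE of 0.48, 0.45 and 0.31. *COL26A1* entered the test with 1 FPKM or more in only 5 libraries, 3 of them AFB1, so that its positive estimate is a description. None of these 5 passed in the 14 libraries; *COL21A1* passed without CON replicate 2 (-0.76) or 3 (-0.73), and *COL6A2* without AFB1 replicate 2 (-0.67) or CON replicate 5 (-0.65). *COL8A1* and *COL12A1* turned negative without AFB1 replicate 2 (-0.28 and -0.51), and *COL26A1* and *COL12A1* did so with all 15 libraries (-0.045 and -0.092), where *COL21A1* turned positive (0.22). No gene of the file passed a Benjamini-Hochberg adjusted *P* under 0.05 in edgeR (0%; 664 genes at an unadjusted *P* under 0.05), while DESeq2 gave 17 genes, none of them a collagen.

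**Figure D5:**
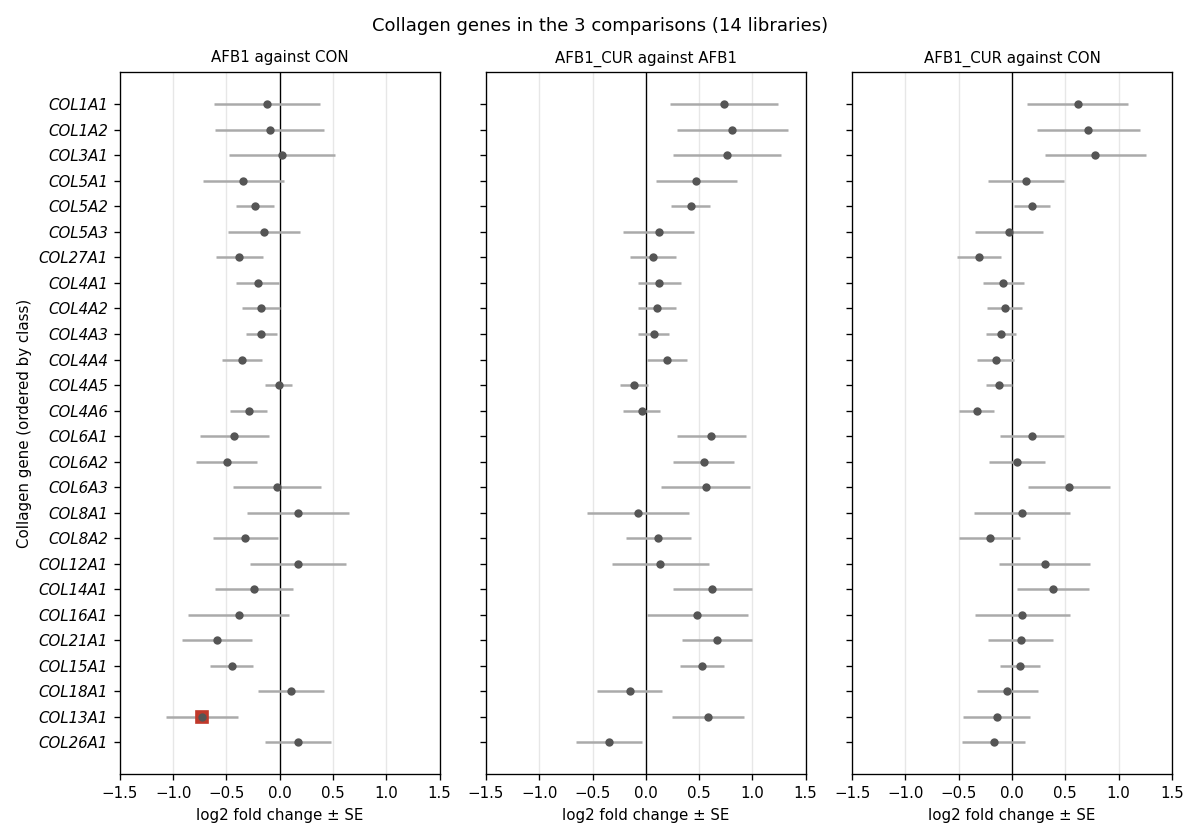
Log2 fold change ± SE of the 26 tested collagen genes in the 3 comparisons, by class from fibril-forming (top) to COL26A1 (bottom), from 14 libraries; the square marks COL13A1, which passed the screening conditions. In the first panel 21 of 26 estimates lie below 0, in the second 21 of 26 above it, and in the third 14 of 26 above it.

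Against AFB1, the AFB1_CUR group had higher estimates for most collagen genes, with *COL1A1*, *COL1A2* and *COL3A1* foremost, and none of the 26 passed the screening conditions, beside 0.41% of all genes with higher and 0.524% with lower levels. The estimate was positive for 21 of 26, with a median log2 fold change of 0.31 beside 0.00 over all genes. That median was 0.12 without AFB1_CUR replicate 2 and 0.56 without AFB1 replicate 2. All 7 fibril-forming, all 3 type VI and all 4 FACIT genes were on the positive side, with medians of 0.47, 0.56 and 0.55, and the 6 type IV genes had a median of 0.09. Without AFB1_CUR replicate 2 the first 3 medians were 0.13, 0.36 and 0.11, and without AFB1 replicate 2 that of the fibril-forming genes was 0.72. The largest estimates were those of *COL1A2* (0.81 ± 0.52), *COL3A1* (0.76 ± 0.50) and *COL1A1* (0.74 ± 0.51), each with an adjusted *P* of 1 in edgeR. For these 3 genes, replicate 2 was far above the rest in both groups, and without AFB1_CUR replicate 2 the estimates were 0.10, 0.14 and 0.13. The smallest were those of *COL26A1* (-0.34 ± 0.31), *COL18A1* (-0.15 ± 0.31) and *COL4A5* (-0.11 ± 0.13).

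*COL15A1* and *COL5A2* had an unadjusted *P* under 0.05 in AFB1_CUR against AFB1, as 2.3% of all genes did, with log2 fold changes of 0.53 ± 0.20 and 0.42 ± 0.18, below the fold threshold, and an adjusted *P* of 1 (edgeR). *COL15A1* was at 28.9, 40.4, 34.3, 37.6 and 39.9 FPKM in AFB1_CUR replicates 1 to 5. The AFB1 values (19.1 to 31.0) overlapped with these only through AFB1_CUR replicate 1. *COL5A2* was at 5.97, 11.98, 7.40, 6.07 and 7.41 FPKM in AFB1_CUR and at 8.24, 4.70, 4.86 and 4.25 in AFB1, where AFB1 replicate 2 alone reached into the AFB1_CUR range.

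The collagens called in AFB1_CUR against AFB1 depended on the libraries and the model. With the replicate number added to the model, 5 passed with higher levels in AFB1_CUR, beside 72 of 13162 genes. They were *COL1A1* (0.70), *COL1A2* (0.76), *COL3A1* (0.73), *COL6A1* (0.59) and *COL21A1* (0.65), and none had an adjusted *P* under 0.05 in edgeR. Without AFB1 replicate 2, 8 of 25 tested collagens passed with higher levels in AFB1_CUR, beside 1.13% of all genes: *COL1A1* (1.28), *COL1A2* (1.43), *COL3A1* (1.36), *COL5A2* (0.63), *COL6A1* (0.79), *COL6A2* (0.72), *COL6A3* (0.98) and *COL15A1* (0.62), on the log2 scale. Without replicate 2 of both groups, a choice made after the values were seen, *COL1A2* (0.72), *COL3A1* (0.74) and *COL15A1* (0.63) passed, beside 0.89% of all genes, and *COL1A2* (-0.70), *COL6A2* (-0.66) and *COL16A1* (-0.87) passed with lower levels in AFB1 than in CON, beside 1.23%. The AFB1 libraries are common to both comparisons, so that a low value in them enters both. With all 15 libraries, *COL15A1*, *COL6A1* and *COL6A2* passed with higher (0.68, 0.78 and 0.73, beside 0.591% of all genes) and *COL18A1* with lower levels (-1.33, beside 3.39%) in AFB1_CUR, the last being the gene at 148 FPKM in the liver-like library. *COL21A1*, singled out after its values were seen, had an estimate of 0.67 ± 0.33 in the 14 libraries and passed in 8 of 24 alternative analyses, among them DESeq2, limma on log2(FPKM + 0.1) and the fit of only the groups compared, but turned to -0.14 with all 15 libraries. No gene passed an adjusted *P* under 0.05 in edgeR (0%; 303 at an unadjusted *P* under 0.05) and 3 did in DESeq2.

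Between AFB1_CUR and CON, no collagen gene was called. None of the 26 had an unadjusted *P* under 0.05, beside 5.49% of all genes, and none passed the screening conditions, beside 1.05% of all genes with higher and 0.577% with lower levels in AFB1_CUR. The estimate was positive for 14 of 26, with a median of 0.06 beside -0.00 over all genes. The largest were again *COL3A1* (0.78 ± 0.47), *COL1A2* (0.72 ± 0.49) and *COL1A1* (0.62 ± 0.47), which without AFB1_CUR replicate 2 were 0.17, 0.013 and 0.014. The smallest were *COL4A6* (-0.33 ± 0.17), *COL27A1* (-0.31 ± 0.21) and *COL8A2* (-0.21 ± 0.29). The 6 type IV genes all had negative estimates, with a median of -0.11. Without AFB1_CUR replicate 2 the positive count over the 26 was 7 and their median -0.08, and leaving out any 1 library gave medians of -0.08 to 0.18. No gene passed an adjusted *P* under 0.05 in edgeR (0%; 723 at an unadjusted *P* under 0.05) and 1 did in DESeq2.

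*COL28A1*, a collagen known from the glia of peripheral nerves, did not pass the filter on low values and was noticed after its values were seen. It was at 0.887, 2.25, 0.239, 1.25 and 1.74 FPKM in CON, at 0.230, 0.260, 0.351 and 0.399 in AFB1 and at 0.386, 0.209, 0.263, 0.606 and 1.12 in AFB1_CUR. All AFB1 values lay below 4 of the 5 CON values, and CON replicate 3 was as low as they were. With the milder filter of edgeR's filterByExpr its log2 fold change was -1.97 ± 0.60 in AFB1 against CON (adjusted *P* = 0.982) and -1.33 ± 0.54 in AFB1_CUR against CON (adjusted *P* = 0.867), both past the screening conditions, as were 1.4% and 0.898% of all genes with lower levels in that analysis.

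The genes that make, cut, hold and break down collagen were read by list. Of 17 tested genes for collagen modification and folding, 8 for procollagen processing and cross-linking, 8 for collagen breakdown and its inhibitors, 7 collagen receptors, 13 other basement membrane genes, 18 other interstitial matrix genes and 14 profibrotic signals, none passed in AFB1 against CON, with list medians of -0.05 to 0.05 on the log2 scale. Of all genes, 1.11% passed with lower and 0.653% with higher levels in AFB1. Lists of this size would hold few calls at that rate. In AFB1_CUR against AFB1, 2 of the 18 interstitial matrix genes passed with higher levels in AFB1_CUR, beside 0.41% of all genes. *LUM*, a proteoglycan that spaces collagen fibrils, was at 59.1 ± 8.32 FPKM in AFB1_CUR (SD, n = 5), 34.3 ± 9.04 in AFB1 (n = 4) and 51.0 ± 21.8 in CON (n = 5), a log2 fold change of 0.73 ± 0.31 (adjusted *P* = 1, edgeR). It did not pass in 5 of 24 alternative analyses, among them those without AFB1 replicate 4 (0.68) or 5 (0.63) or AFB1_CUR replicate 1 (0.71) or 5 (0.66). *TNXB*, a matrix glycoprotein bound to fibrils, gave 0.69 ± 0.31 and did not pass in 9 of 24, among them both limma analyses and those without AFB1 replicate 2 (0.75), 4 (0.67) or 5 (0.51) or AFB1_CUR replicate 1 (0.72), 2 (0.46) or 3 (0.67). The median of that list was 0.33, with 2 calls. Without AFB1_CUR replicate 2 it was 0.19 with 1 call (*LUM*) among 17 tested, beside 193 of 13044 genes called in either direction. Without AFB1 replicate 2 it was 0.67 with 4 calls (*DCN*, *LUM*, *OGN* and *FBLN1*) among 17, beside 261 of 13048.

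In AFB1_CUR against CON, *POSTN* and *FBN1* of the interstitial matrix list and *PLOD2* of the modification list passed with higher levels in AFB1_CUR, beside 1.05% of all genes, and the other 5 lists had no call. *POSTN*, a matricellular protein of remodelling tissue, was at 2.07 ± 1.94 FPKM in AFB1_CUR and 0.699 ± 0.106 in CON (SD, n = 5 each; log2 fold change 1.42 ± 0.51). It reached 1 FPKM in 4 AFB1_CUR libraries and AFB1 replicate 2 and in no CON library (highest 0.842), so that it entered the test through the group where it was high and its call is a description. *FBN1*, the main protein of microfibrils, gave 0.63 ± 0.26 and *PLOD2*, a lysyl hydroxylase for collagen cross-links, gave 0.68 ± 0.25, all with an adjusted *P* of 0.823 in edgeR. Without AFB1_CUR replicate 2, *FBN1* (0.25) and *PLOD2* (0.48) did not pass, and *POSTN* fell short of the filter, as it did without AFB1_CUR replicate 1, 3 or 5, without AFB1 replicate 2 and with only the groups compared. With all 15 libraries none of the 3 passed (1.42, 0.63 and 0.69 for *POSTN*, *FBN1* and *PLOD2*). In all, *FBN1* did not pass in 9 of 24 alternative analyses, among them both limma analyses (0.53 and 0.59) and those without CON replicate 1 (0.62), 4 (0.63) or 5 (0.55), and *PLOD2* did not pass in 5 of 24, among them limma on log2(FPKM + 1) (0.44) and that without CON replicate 4 (0.56). All 18 interstitial matrix genes had positive estimates with a median of 0.43, and 12 of 17 with a median of 0.14 without that library.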

How the data were processed

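RNA of 15 libraries labelled kidney, 1 of them liver-like by its markers, was sequenced in read pairs, and the authors removed adapter and low-quality reads and aligned the rest. The submitters' processing notes list cutadapt 1.9, HISAT2 2.2.1, StringTie 2.1.6, DESeq2 and edgeR, with no genome build given in the sources used here. For each gene and library, the authors deposited a whole-number count and an FPKM value, normalized by them for length and depth. Among the deposited counts, 4 occurred 8032 times, more often than 3 (2819) or 5 (2266), so that counts may come from coverage rather than single reads, and low counts are imprecise. Gene positions are as the file gives them; the starts and ends of 24848 of 24947 shared symbols, including all 43 collagens, equal those of the RefSeq table of ARS-UI_Ramb_v3.0.

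Samples were grouped by their titles. Genes with at least 1 FPKM in at least 5 of 14 libraries (13162, among them 26 collagens) were tested with edgeR 4.0.16 (TMM, quasi-likelihood, 1 model with the 3 groups, R 4.3.3), without AFB1 replicate 1, and called at the study's thresholds (*P* under 0.05, fold change above 1.5); Benjamini-Hochberg adjustment ran over all genes tested. *P* values measure the spread between sheep within a group. The pen of each library is not given in the sources used here, so that sheep sharing a pen were treated as independent. The script was tested on simulated data. Alternatives used DESeq2 1.42.0, limma 3.58.1 on log2(FPKM + 1) or log2(FPKM + 0.1), other filters, other libraries and a replicate block. Named were every collagen called in the main analysis, the 3 most positive and 3 most negative estimates where fewer than 3 were called, genes with a median of at least 1 FPKM for levels, and up to 2 called genes per matrix list. *COL15A1*, *COL5A2*, *COL21A1* and *COL28A1*, and some but not all of the collagens called only in an alternative, were named after their values were seen. The collagen classes, matrix lists and markers were chosen with earlier results of these data known. Of the markers, SLC22A6, UPK2 and LEP were not matched. Correlations used scipy 1.17.1.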

Additional observations from a re-analysis of the deposited data

Results flagged for a closer look

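Among 78 sets of values (26 tested collagen genes in each of the 3 groups), 12 single values stood apart from the rest of their group by Dixon's ratio at the 95% level. The usual rate of 1 in 20 flagged by chance holds for unrelated sets of normally spread values. These sets share the same libraries and several of their genes move together, so that the count of flags cannot be set against that rate. AFB1_CUR replicate 2 gave 7 of them, each the highest of its group: *COL1A1* at 79.4 FPKM (next 29.7), *COL1A2* at 128 (next 35.1), *COL3A1* at 109 (next 37.9), *COL5A2* at 11.98 (next 7.41), *COL8A1* at 6.04 (next 1.94), *COL12A1* at 46.2 (next 18.6) and *COL14A1* at 3.83 (next 1.55). AFB1 replicate 2 gave 4, *COL1A2* at 53.4 FPKM (next 17.2), *COL3A1* at 49.3 (next 16.7), *COL5A2* at 8.24 (next 4.86) and *COL12A1* at 42.8 (next 14.4). The remaining value was *COL26A1* in CON replicate 1 at 1.40 FPKM (next 0.810). No type IV or type VI gene was among them. Fibroblast, immune cell, adrenal and adipocyte markers were also highest in 1 or both of the first libraries, and their part in these values was not tested.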

How the results depend on the processing

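The median shares of types I, III, IV, VI, XV and XVIII moved by less than 1 SD with means, with all 15 libraries or without any 1 library. A median can move little when 1 library is added or dropped, so that this is a weak check. Shares from TPM equal those from FPKM by construction and test nothing. Of 514 alternative values for single named collagens, 460 kept their direction and call, whatever their size. Most of these genes had no call to lose. *COL1A1* and *COL1A2* in AFB1_CUR against CON counted as kept although their estimates nearly vanished without AFB1_CUR replicate 2. *COL13A1* lost its call in AFB1 against CON in 14 alternatives and kept it in 10. *COL1A2*, *COL3A1* and *COL1A1* were positive in AFB1_CUR against AFB1 in all alternatives run.

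With AFB1 against CON, the collagens called were 1 in the main analysis, 3 with all 15 libraries and without replicate 2 of both groups, 2 with no filter or filterByExpr, 0 with either limma analysis or the replicate block, and 0 to 2 leaving out 1 library. With AFB1_CUR against AFB1 they were 0, then 4 with all 15 libraries and 5 with the replicate block (*COL1A1*, *COL1A2*, *COL3A1*, *COL6A1* and *COL21A1*), beside 525 of 13193 and 150 of 13162 genes. They were 3 without replicate 2 of both groups and 2 with limma on log2(FPKM + 0.1), beside 207 of 12920 and 134 of 13162. DESeq2 and only the groups compared gave 1 each, beside 153 of 13162 and 110 of 12739, and leaving out 1 library gave 0 to 8. With AFB1_CUR against CON they were 0, then 2 with no filter, 1 with filterByExpr and 0 in every analysis leaving out 1. At an adjusted *P* under 0.05 each of these counts, and each count over all genes, was 0 in edgeR.

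Over all genes, 232, 123 and 214 were called in the same order of comparisons. All 15 libraries gave 639, 525 and 131, no filter 867, 707 and 928, filterByExpr 529, 343 and 526, and limma on log2(FPKM + 1) 105, 81 and 80. Limma on log2(FPKM + 0.1) gave 202, 134 and 175, DESeq2 281, 153 and 255, and only the groups compared 259, 110 and 204. Leaving out 1 library gave 204 to 454, 119 to 261 and 115 to 305, the largest moves being without AFB1 replicate 5 (454 and 221), AFB1 replicate 2 (261) and AFB1_CUR replicate 2 (193 and 115); leaving out replicate 2 of both groups gave 251, 207 and 115. The replicate block gave 228, 150 and 282. Same-numbered libraries correlated at -0.28 to 0.55 in their deviations from the group means. The replicate 2 libraries gave 0.55, 0.38 and 0.37. Differently numbered libraries were not compared, so that these values cannot settle whether same-numbered libraries are paired.

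Directions turned as follows. In AFB1 against CON, *COL21A1* was 0.22, *COL12A1* -0.092 and *COL26A1* -0.045 with all 15 libraries, *COL8A1* -0.28 and *COL12A1* -0.51 without AFB1 replicate 2, and -0.27 and -0.50 without replicate 2 of both groups; leaving out 1 library gave -0.28 to 0.42 and -0.51 to 0.39. In AFB1_CUR against AFB1, *COL4A5* was 0.063 and *COL21A1* -0.14 with all 15 libraries, and *COL18A1* was 0.012 without AFB1_CUR replicate 1, 0.14 without AFB1 replicate 2 and 0.022 without replicate 2 of both groups (-0.36 to 0.14 leaving out 1). The cause was not tested. Depth (at least 50255295 counts per library) limits the low collagens, where counts are imprecise.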

Other observations

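Among the collagen genes too low to be tested, 9 of 17 had their highest level in AFB1_CUR replicate 2. *COL22A1*, a FACIT of tissue junctions, was at 1.18 FPKM there and at 0.187 or less in the other 13 kidney libraries, and *COL17A1* was at 1.18 there and at 0.495 or less elsewhere. *COL10A1*, a collagen of hypertrophic cartilage, was at 0.480 FPKM in AFB1 replicate 2 and at 0.0444 or less elsewhere. *COL6A6* was at 2.02 FPKM in the liver-like library and at 0.904 or less in the 14 kidney libraries, while *COL28A1* and *COL23A1* were listed at 0 in it.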
